A study of Homo sapiens with 4 samples.

Results

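The collagens, laminins and integrins were read from 203 probe sets of 77 genes, out of 54675 probe sets on the array, of which 41097 were annotated to 1 gene and gave 19775 genes. They were chosen by symbol: COL, a number, A and a number; LAMA, LAMB or LAMC and a number; and ITGA or ITGB followed by a number or a single letter. The choice gave 43 collagen genes with 112 probe sets, 10 laminin genes with 23 and 24 integrin genes with 68. The 4 samples, 1 Affymetrix array each, were modified cells of a pair of colorectal cancer lines, titled HCT116-CDX1, HCT116-Vec, LS174T-siCDX1 and LS174T-siVec. HCT116 is a human colorectal carcinoma line, LS174T is a mucin-producing human colon adenocarcinoma line, and CDX1 is a homeobox regulator of gut epithelial identity. The titles were read as CDX1 introduced into HCT116 beside a vector control, and CDX1 lowered in LS174T beside a vector control; the labels do not state constructs, clones or culture conditions.

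Collagens are triple-helical matrix proteins that form fibrils, sheet-like networks or linkers between fibrils. Laminins are trimers of an alpha, a beta and a gamma chain that build the basement membrane on which an epithelium rests. Integrins are receptors of an alpha and a beta chain that hold cells to these proteins, and the laminin of hemidesmosomes, which contains the LAMB3 chain, is held by the integrin made of the ITGA6 and ITGB4 chains. Levels are the deposited log2 RMA values, in which a difference of 1 is 2-fold. Where a gene had several probe sets, the one with the highest average level stood for it. A gene counted as measured if either array of a comparison reached 6. The words "rose", "fell" and "changed" are kept for measured genes at least 2-fold apart. With 1 array per group no difference has a replicate check, precision is limited by the number of arrays, and comparisons of 2 arrays carry no p-value. Levels of different probe sets are not on a common scale, so each was compared with itself across arrays.

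The regions upstream of the genes that name the set are shown because COL18A1 and COL12A1 had the largest fall of the set in LS174T and in HCT116, and LAMB3 changed in both pairs. Each window of 300 bases holds 250 bases before and 50 after an annotated start and is given 5′ to 3′ on the strand of the gene, from RefSeq promoter sequences of build GRCh38.p14; capitals mark TTTAT or its reverse complement ATAAA, the core of the CDX binding motif. COL18A1 has 2 annotated starts, at chr21:45404915-45405214 (plus strand) for the upstream window and chr21:45455272-45455571 (plus strand) for the downstream window. COL12A1 lies at chr6:75206004-75206303 (minus strand) and the outermost of 3 LAMB3 windows at chr1:209652376-209652675 (minus strand).
COL18A1 upstream: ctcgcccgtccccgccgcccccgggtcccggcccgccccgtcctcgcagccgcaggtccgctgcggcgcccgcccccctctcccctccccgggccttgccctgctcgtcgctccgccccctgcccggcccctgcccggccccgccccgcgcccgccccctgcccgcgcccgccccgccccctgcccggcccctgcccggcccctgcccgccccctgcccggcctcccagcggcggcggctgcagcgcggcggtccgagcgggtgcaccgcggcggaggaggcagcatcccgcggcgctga
COL18A1 downstream: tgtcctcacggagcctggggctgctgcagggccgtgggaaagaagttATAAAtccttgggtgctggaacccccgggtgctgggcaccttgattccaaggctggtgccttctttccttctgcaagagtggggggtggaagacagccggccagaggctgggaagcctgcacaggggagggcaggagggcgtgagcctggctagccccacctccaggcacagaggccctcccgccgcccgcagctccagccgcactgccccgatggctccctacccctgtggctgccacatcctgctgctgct
COL12A1: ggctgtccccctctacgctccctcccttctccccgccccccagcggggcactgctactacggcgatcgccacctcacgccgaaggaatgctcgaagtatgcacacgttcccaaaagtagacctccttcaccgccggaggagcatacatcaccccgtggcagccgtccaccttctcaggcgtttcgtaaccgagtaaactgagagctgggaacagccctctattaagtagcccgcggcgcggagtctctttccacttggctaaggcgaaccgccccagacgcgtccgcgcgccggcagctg
LAMB3: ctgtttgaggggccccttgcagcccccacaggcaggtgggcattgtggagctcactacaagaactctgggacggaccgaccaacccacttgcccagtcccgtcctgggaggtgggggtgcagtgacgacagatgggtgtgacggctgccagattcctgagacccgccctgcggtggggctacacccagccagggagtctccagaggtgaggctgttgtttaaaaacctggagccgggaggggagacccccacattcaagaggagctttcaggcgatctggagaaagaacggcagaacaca
The downstream COL18A1 window held 1 copy of the motif on the opposite strand, and the other 3 windows held 0. Over the whole set, 54 of the 77 genes had a window, 73 windows in all, and 27 of those windows (37.0%) held the motif on either strand, beside 34.9% of 35116 windows of all genes. A match is a description of the letters and not a binding site.

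The arrays were compared before the genes. CDX1, read by 1 probe set, stood at 8.24 on the array labelled HCT116-CDX1 and 8.21 in HCT116-Vec, and at 9.06 in LS174T-siCDX1 and 10.46 in LS174T-siVec. The reading was thus not raised in HCT116, and each direction in that pair rests on the label. Epithelial markers were present, with 8 of 8 at or above 6 on every array. Markers of other cell types also gave readings over that floor: 7 or 8 of 10 fibroblast, 4 of 6 endothelial, 4 of 5 leukocyte, 4 of 4 platelet and 5 of 5 smooth muscle genes, with medians of 6.50 to 7.62. None of these non-epithelial markers changed in a comparison on the probe set read for the gene, although COL1A1, on the fibroblast list, had 2 other probe sets that were lower in LS174T-siVec, described further on. Of the 8 epithelial markers, the intestinal cadherin gene CDH17 rose on the array labelled HCT116-CDX1 by 1.31, and in LS174T-siCDX1 the keratin genes KRT8 and KRT19 and the galectin gene LGALS4 differed by -1.49, -1.69 and -1.64. Between the vector arrays CDH17, LGALS4 and VIL1 were higher in LS174T-siVec and CDH1 was lower. What part the epithelial markers have in the results was not tested. A level slightly over 6 is therefore given as an array reading, and the results below are differences. Spike-in control probe sets, 18 in number, differed by up to 0.35 in the HCT116 pair, 0.17 in the LS174T pair and 0.36 between the vector arrays.

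On the array labelled HCT116-CDX1, LAMB3 and ITGA2 rose and COL12A1 fell relative to HCT116-Vec, and the other 64 measured genes of the set differed by less than 2-fold. In RNA of whole cultures, fewer cells with a transcript and less of it per cell cannot be told apart. The 3 changed genes were 4.48% of 67 measured, beside 1.89% of all 16914 measured genes. By direction, 2.99% of the set rose, beside 0.916% of all, and 1.49% fell, beside 0.97%; these shares rest on 2 genes and 1 gene. The set median was 0.18 with 47 genes above 0 and 20 below, beside a median of -0.01 over all measured genes with 8280 above 0. By family the medians were 0.11 for 34 measured collagens, 0.23 for 10 laminins and 0.19 for 23 integrins.

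In LS174T-siCDX1, COL18A1 and LAMB3 fell relative to LS174T-siVec and 0 genes of the set rose. The other 63 of 65 measured genes differed by less than 2-fold. The 2 changed genes were 3.08% of those measured, beside 1.85% of all 16896 measured genes; over all genes 0.598% rose and 1.25% fell. The set median was -0.03 with 28 genes above 0 and 37 below, and over all measured genes it was -0.01. The collagens had a median of 0.00 (31 measured), the laminins of -0.10 (10) and the integrins of -0.04 (24).

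LAMB3, which encodes the beta chain found in the laminin of hemidesmosomes, was the member that changed in both pairs. Its level was 9.59 on the array labelled HCT116-CDX1 and 8.46 in HCT116-Vec, a rise of 1.14 or 2.197-fold. In LS174T-siCDX1 it was 7.21, against 8.42 in LS174T-siVec, a fall of 1.21 or 2.31-fold. The vector arrays of the lines were thus at nearly the same reading, and the modified arrays lay above it in HCT116 and below it in LS174T. LAMB3 had 1 probe set, so no second reading was available. Of all 16530 genes measured in both pairs, 18 rose on the array labelled HCT116-CDX1 and fell in LS174T-siCDX1, which is 0.109%; of 64 such genes of the set, LAMB3 was the 1 that did.

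COL18A1, a basement membrane collagen whose cleaved end is endostatin, fell the most within either pair. Its level was 6.56 in LS174T-siCDX1 and 9.97 in LS174T-siVec, a difference of -3.41 or 10.6-fold. The second COL18A1 probe set read 6.22 in LS174T-siCDX1 and 8.14 in LS174T-siVec, a difference of -1.92. Both LS174T-siCDX1 readings lay under that array's median of 7.06, so the size of the fall rests on low readings. In the HCT116 pair the same probe sets read 10.11 and 8.51 on the array labelled HCT116-CDX1, against 9.64 and 7.99 in HCT116-Vec, differences of 0.47 and 0.52 that stay under 2-fold. LS174T-siCDX1 was the low array of the 4 in both probe sets.

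COL12A1, a collagen that lies on the surface of fibrils and links them to other matrix, was read mainly in HCT116. Its level was 7.97 on the array labelled HCT116-CDX1 and 9.84 in HCT116-Vec, a fall of 1.87 or 3.65-fold. In the LS174T pair the level lay under 6, at 5.96 in LS174T-siCDX1 and 5.73 in LS174T-siVec, so the gene was not measured there on the probe set read for it. Another COL12A1 probe set lay over the floor in that pair, at 6.51 in LS174T-siCDX1 and 6.38 in LS174T-siVec, and a further one read 6.41 and 5.94 on the same arrays, both under 2-fold. Of the 4 other COL12A1 probe sets, 2 gave falls of like size in the HCT116 pair, -1.71 and -1.73, and the remaining ones differed by -0.62 and 0.20.

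ITGA2, the alpha chain of a collagen-binding integrin that also binds laminin, read 11.39 on the array labelled HCT116-CDX1 and 9.997 in HCT116-Vec, a rise of 1.39 or 2.62-fold. The second ITGA2 probe set gave a difference of 0.75, under 2-fold. In the LS174T pair ITGA2 read 9.50 in LS174T-siCDX1 and 9.87 in LS174T-siVec, a difference of -0.36. The array labelled HCT116-CDX1 was thus the high one and the other 3 lay within 0.50 of each other.

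**Figure D1:**
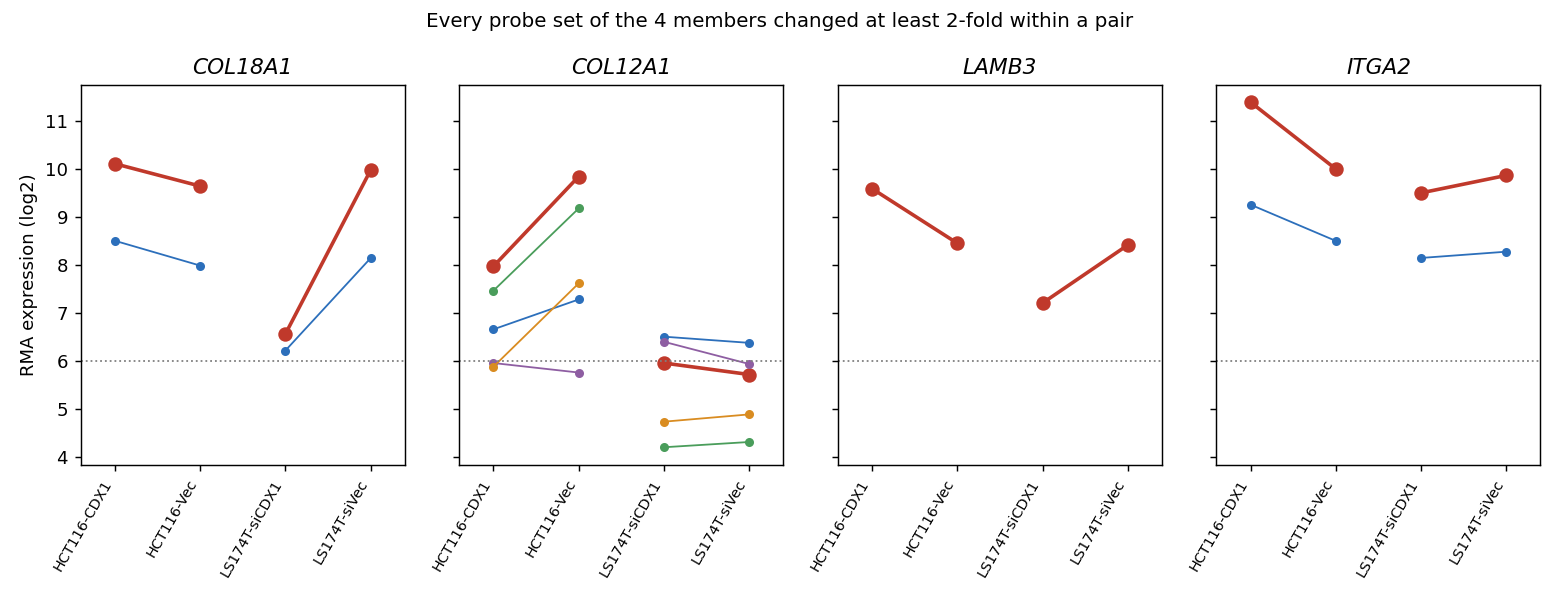
RMA expression on the log2 scale (vertical axis) of every probe set of COL18A1, COL12A1, LAMB3 and ITGA2 on the 4 arrays (horizontal axis). Each colour is 1 probe set, the large points and thick line are the one read for the gene, lines join the arrays of a pair and the dotted line is the floor of 6; COL18A1 drops to 6.56 in LS174T-siCDX1, the COL12A1 probe set read for the gene is under 6 in the LS174T arrays while another stays slightly over it, and LAMB3 is at 8.42 in LS174T-siVec and 8.46 in HCT116-Vec.

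**Figure D2:**
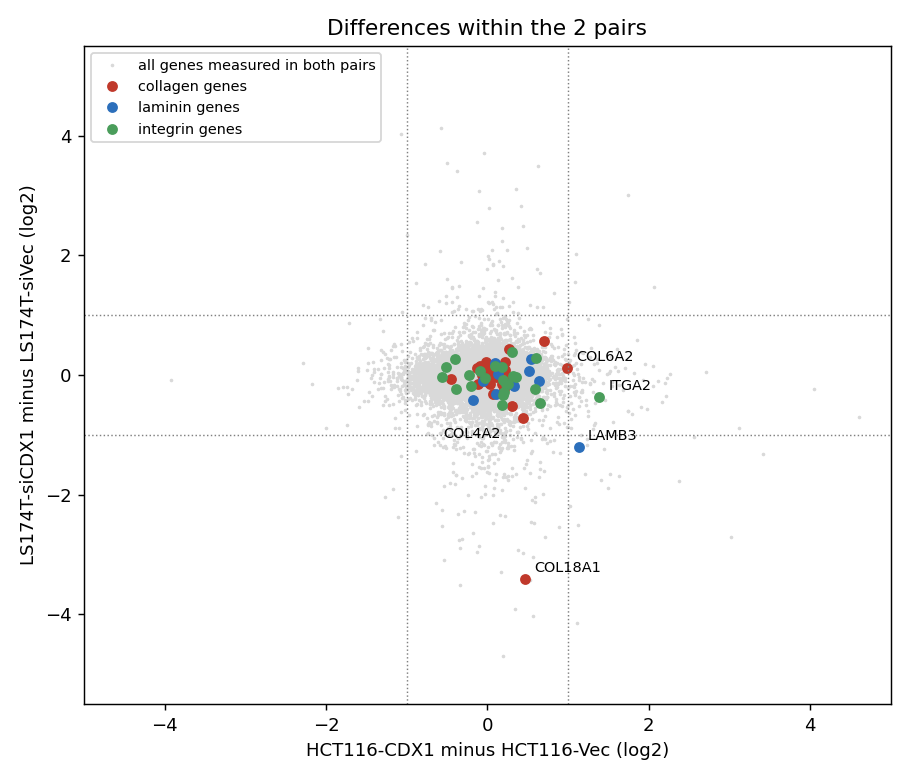
Difference of LS174T-siCDX1 minus LS174T-siVec (vertical axis, log2) against HCT116-CDX1 minus HCT116-Vec (horizontal axis, log2), read from 1 array each. Coloured points are the 64 genes of the set measured in both pairs, grey points all 16530 such genes, and dotted lines mark 2-fold; LAMB3 at 1.14 and -1.21 is the coloured point beyond both lines.

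The remaining laminin chains stayed under 2-fold in both pairs as read for the gene. LAMA5, the alpha chain of mature epithelial basement membrane, read 10.32 and 9.81 in the HCT116 pair (array labelled HCT116-CDX1, then HCT116-Vec), and 9.65 and 9.57 in the LS174T pair (LS174T-siCDX1, then LS174T-siVec). LAMB2 differed by 0.54 in HCT116 and 0.27 in LS174T. LAMC1, the gamma chain most laminins share, differed by 0.33 and -0.18, and LAMC3 by 0.64 and -0.10. LAMB1 differed by 0.10 and -0.31, LAMA2 by -0.17 and -0.42, LAMA1 by 0.09 and 0.20, and LAMB4 by -0.06 and -0.10.

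Among the integrin chains of epithelial cells no other call was made in a pair. ITGB4 read 11.70 on the array labelled HCT116-CDX1 and 11.04 in HCT116-Vec, a difference of 0.65, and 9.01 in LS174T-siCDX1 and 9.48 in LS174T-siVec, a difference of -0.47. Its 2 next brightest probe sets gave 0.71 and 0.71 in HCT116 and -0.50 and -0.65 in LS174T. ITGA6, the partner chain of ITGB4, differed the other way in sign, by -0.41 in HCT116 and 0.27 in LS174T. ITGB1, the beta chain shared by collagen, laminin and fibronectin receptors, read 13.03 and 12.84 in the HCT116 pair and 12.01 and 12.34 in the LS174T pair, each with the modified array first. The fibronectin receptor chain ITGA5 differed by 0.60 and 0.28, the laminin receptor chain ITGA3 by 0.18 and -0.50, ITGAV by 0.36 and -0.03, and its partners ITGB5 by 0.20 and -0.28 and ITGB8 by -0.52 and 0.14. ITGAE, known from lymphocytes that lodge in epithelium, read 9.87 and 10.44 in the HCT116 pair and 10.96 and 10.99 in the LS174T pair. The 7 integrin alpha chains listed as leukocyte chains, ITGAE included, held 0 changed genes in either pair. ITGB6 was not read, since its 4 probe sets were annotated to a second gene as well.

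The network and fibrillar collagens other than COL18A1 also stayed under 2-fold within the pairs. The nearest to the threshold were COL4A5 and COL6A2 in HCT116. COL4A5, a chain of basement membrane network collagen, read 10.04 on the array labelled HCT116-CDX1 and 9.04 in HCT116-Vec, a fold of 1.996. COL6A2, a chain of the beaded-filament collagen, read 10.17 and 9.18 on the same arrays, a fold of 1.99. Its partner chain COL6A1 differed by 0.70, and the 7 other COL6A1 probe sets by 0.05 to 1.07. In LS174T-siCDX1, COL4A2 read 6.97, against 7.68 in LS174T-siVec, a difference of -0.71, and COL6A1 read 11.13, against 10.56, a difference of 0.58. COL4A1, COL1A1, COL1A2 and COL3A1 differed by -0.11 to 0.22 in the HCT116 pair and by -0.15 to 0.18 in the LS174T pair on the probe sets read for them.

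The vector arrays, LS174T-siVec against HCT116-Vec, were compared to see how the lines differ in these genes. CDX1 read 10.46 in LS174T-siVec and 8.21 in HCT116-Vec, and line and CDX1 cannot be told apart in this comparison. Of 66 measured genes of the set, 3 were higher in LS174T-siVec and 9 lower, and 54 differed by less than 2-fold. The 12 changed genes were 18.2% of those measured, beside 13.4% of all 17043 measured genes. The lower ones were 13.6% of the set, beside 7.33% of all measured genes, and the higher ones 4.55%, beside 6.03%. The set median was -0.02 and that of all measured genes 0.01.

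Among the collagens, 5 were lower in LS174T-siVec and 1 was higher. COL12A1 read 5.73 in LS174T-siVec and 9.84 in HCT116-Vec; since 5.73 lies under the floor, the fold is given against a level of 6, as at least 14.3, a reckoning adopted with the values known. The COL12A1 probe set over the floor on all arrays differed by -0.90, under 2-fold. COL4A5 read 4.54 in LS174T-siVec and 9.04 in HCT116-Vec, at least 8.23-fold on the same reckoning. The second COL4A5 probe set read 5.15 in LS174T-siVec and 5.48 in HCT116-Vec, both under the floor. The readings under 6 give COL12A1 and COL4A5 no order. COL6A2 read 6.67 and 9.18, COL27A1, a fibrillar collagen of cartilage, 7.16 and 8.42, and COL9A3, a chain of a fibril-associated collagen, 6.84 and 7.84, each with LS174T-siVec first. The second COL6A2 probe set differed by -0.97, just under 2-fold. Of the 4 other COL27A1 probe sets, 1 was lower, at 5.73 in LS174T-siVec and 7.36 in HCT116-Vec, and 3 differed by -0.12 to -0.03. COL4A2 was higher in LS174T-siVec, at 7.68 against 5.85 in HCT116-Vec, at least 3.21-fold. Its second probe set gave 6.65 in LS174T-siVec and 5.67 in HCT116-Vec, and the difference of 0.98 was just under 2-fold.

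The integrin chains split between the lines. ITGA6 read 12.40 in LS174T-siVec and 10.23 in HCT116-Vec, a difference of 2.17 or 4.50-fold, and its second probe set differed by 1.22. ITGB8 read 8.96 in LS174T-siVec and 6.45 in HCT116-Vec, a difference of 2.51, and the 4 other ITGB8 probe sets differed by 0.59 to 3.103. The probe set at 3.103 read 5.10 in HCT116-Vec, under the floor, and against a level of 6 its difference is 2.20. ITGB4 was lower in LS174T-siVec, at 9.48 against 11.04 in HCT116-Vec. The other ITGB4 probe sets differed by -1.03, -0.71, -0.31 and -0.03. On the probe sets read for the genes, the 2 chains of the hemidesmosomal integrin thus differed in opposite directions between the lines. ITGA3 read 8.38 in LS174T-siVec and 10.06 in HCT116-Vec, and ITGA5 read 7.57 and 9.20 on the same arrays. LAMC1, at 9.38 in LS174T-siVec and 10.41 in HCT116-Vec, was the laminin chain that changed, by -1.03; its second probe set differed by -2.01. LAMC3, at 6.63 in LS174T-siVec and 7.63 in HCT116-Vec, was just short of 2-fold at 1.996, and its second probe set differed by -0.05. Removing a loess trend put LAMC1 at -0.99 and LAMC3 at -1.004, which exchanges the 2 calls.

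The order of the lines was kept by these 12 genes when the modified arrays were set against each other, LS174T-siCDX1 minus HCT116-CDX1. The differences there ran from -5.29 for COL4A5 to 3.17 for ITGB8. COL4A5 read under 6 in LS174T-siCDX1, and ITGB8 read 5.94, also under 6, on the array labelled HCT116-CDX1. All 12 kept their sign, and COL4A2, at 0.68, was the one under 2-fold. The 12 genes were chosen for their difference between the vector arrays, so the shared sign was largely set by that choice and is no test. These differences share each line's cells with the vector comparison and are not a replicate of it. ITGA2, LAMB3 and COL18A1, which differed by -0.13, -0.04 and 0.33 between the vector arrays, differed by -1.89, -2.38 and -3.55 between the modified arrays.

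**Figure D3:**
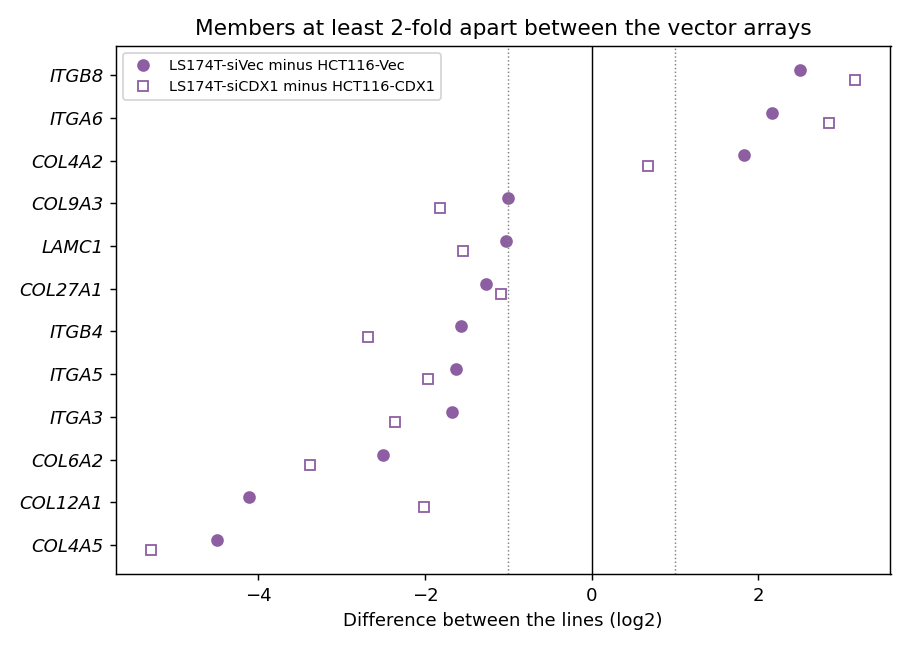
Differences between the lines on the log2 scale (horizontal axis) for the 12 genes of the set changed between the vector arrays (vertical axis), with filled circles for LS174T-siVec minus HCT116-Vec and open squares for LS174T-siCDX1 minus HCT116-CDX1. Dotted lines mark 2-fold; ITGB8, ITGA6 and COL4A2 lie to the right of 0 and the other 9 genes to the left in both comparisons.

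All 4 arrays were also fitted in limma with the cell line and the CDX1 label as terms, which leaves 1 residual degree of freedom. The line term compares the lines at the same CDX1 label, with 2 arrays of differently modified cells per line. These arrays are not replicates, so the SE and adjusted p do not measure the spread between cultures of a line. It called 15 of 68 genes of the set at an adjusted p under 0.05, 3 higher in LS174T and 12 lower, beside 2782 of 17280 genes tested, or 16.1%. ITGA6 was higher by 2.51 (SE 0.15, limma adjusted p = 0.0025) and ITGB8 by 2.84 (SE 0.17, limma adjusted p = 0.0026), while ITGB4 was lower, at -2.13 (SE 0.15, limma adjusted p = 0.0037). COL4A5, at -4.89 (SE 0.32, limma adjusted p = 0.0031), and COL6A2, at -2.94 (SE 0.30, limma adjusted p = 0.0083), were called, as was COL12A1, at -3.06 (SE 0.41, limma adjusted p = 0.016); the estimates of COL4A5 and COL12A1 rest on LS174T readings under 6. The ITGB8 estimate rests in part on a reading of 5.94, under 6, on the array labelled HCT116-CDX1. LAMB3 was among the calls at -1.21 although its vector arrays read alike. The line term averages over both arrays of each line, and LAMB3 differed by -0.04 between the vector arrays and -2.38 between the modified arrays.

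The CDX1 label term, arrays labelled with more CDX1 (HCT116-CDX1 and LS174T-siVec) against those with less, called 0 of 68 genes of the set and 0 of 17280 tested, or 0%. At an unadjusted p under 0.05 it held 6 of 68 genes of the set, beside 518 of all 17280 genes tested. LAMB3 had an estimate of 1.17 (SE 0.15, limma adjusted p = 0.999), and 0.999 was the smallest adjusted p in the set.

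At the level of single probe sets, 2-fold differences also appeared in 5 genes whose brightest probe set stayed under 2-fold. In the HCT116 pair 7 of 137 measured probe sets of the set changed, or 5.11%, beside 1.79% of all 32467 measured probe sets, and in the LS174T pair 3 of 127 did, or 2.36%, beside 1.66%. Between the vector arrays 29 of 136 changed, or 21.3%, beside 13.2%. Probe sets of 1 gene share its transcript and are not independent readings.

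LAMA4, a laminin alpha chain known from vessels and mesenchyme, had 1 probe set at 7.18 on the array labelled HCT116-CDX1 and 8.81 in HCT116-Vec, a fall of 1.63. The same LAMA4 probe set read 4.83 in LS174T-siCDX1 and 5.01 in LS174T-siVec, under the floor. The 3 probe sets of LAMA4 at 6 or more on all arrays, which include the one read for the gene, differed by -0.17 to 0.14 in the HCT116 pair. So 1 of 5 LAMA4 probe sets carried the change, with HCT116-Vec as the high array.

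COL1A1, the main fibril collagen, was read from a probe set at 8.86 to 9.14 on all arrays. Another COL1A1 probe set read 9.37 on the array labelled HCT116-CDX1 and 8.84 in HCT116-Vec, against 4.30 in LS174T-siCDX1 and 3.87 in LS174T-siVec. A further COL1A1 probe set read 8.73 and 8.20 in the HCT116 arrays and 5.85 and 5.54 in the LS174T arrays, each with the modified array first. The remaining pair of COL1A1 probe sets differed between the vector arrays by -0.02 and -0.79. COL1A2, the partner chain of COL1A1 in fibrils, differed by -0.01 between the vector arrays, and its other probe sets by 0.05 and -0.21.

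COL13A1, a collagen that spans the cell membrane, had 1 probe set at 7.41 on the array labelled HCT116-CDX1 and 8.34 in HCT116-Vec, and at 4.83 and 4.78 in LS174T-siCDX1 and LS174T-siVec. Its other COL13A1 probe sets lay between 7.52 and 7.92 on all arrays. For COL6A1 the probe set read for the gene differed by 0.48 between the vector arrays, while 4 others were higher in LS174T-siVec by 1.07 to 2.00. In the HCT116 pair 1 COL6A1 probe set rose, by 1.07. A COL4A4 probe set near the floor read 4.65 in LS174T-siVec and 6.12 in HCT116-Vec, a difference of -1.47; against a level of 6 it is 1.08-fold, so a change in COL4A4 is not established. These probe sets of LAMA4, COL1A1, COL13A1, COL6A1 and COL4A4 were singled out after their values were seen, and which probe set reads the transcript correctly was not tested.

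**Figure D4:**
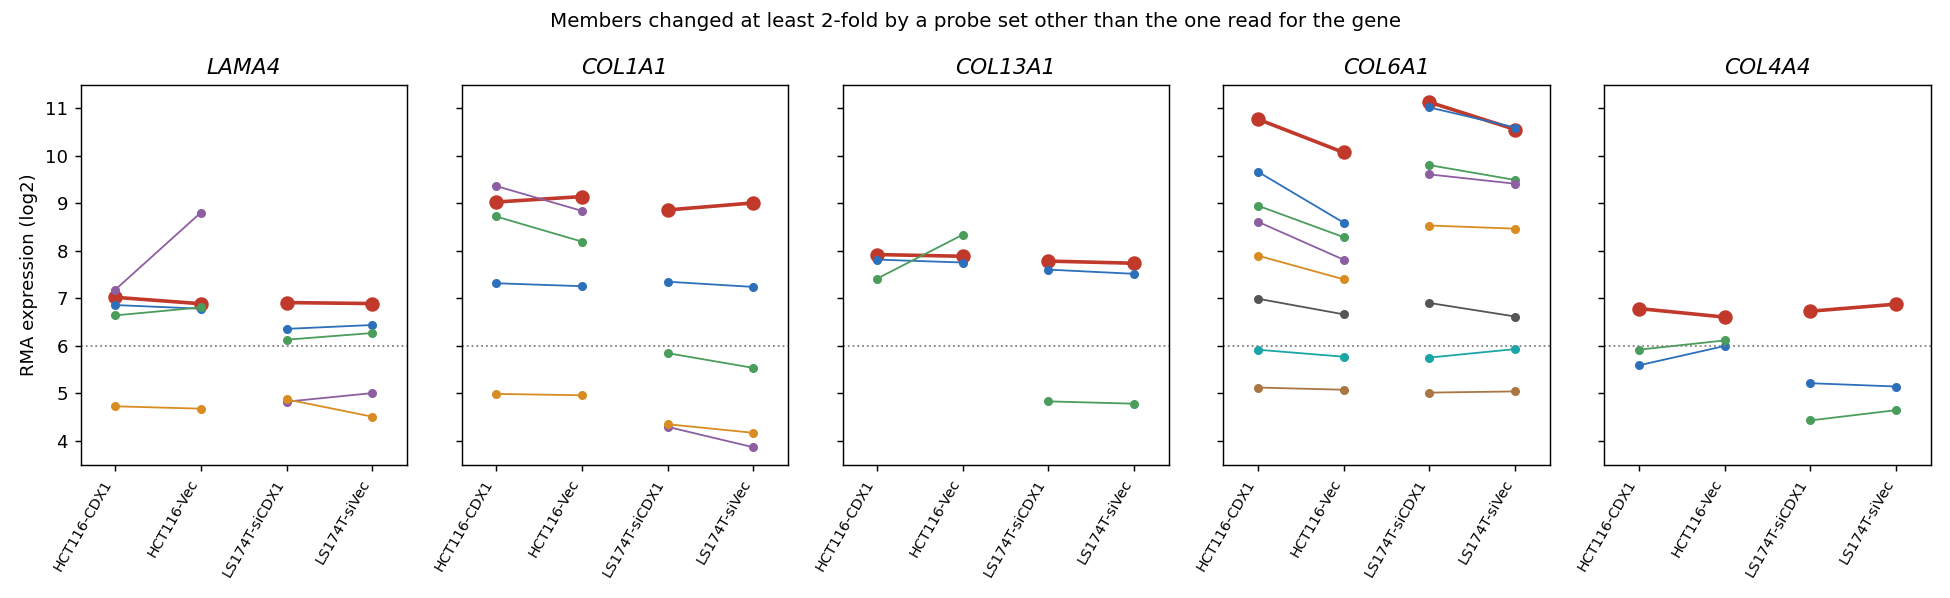
RMA expression on the log2 scale (vertical axis) of every probe set of LAMA4, COL1A1, COL13A1, COL6A1 and COL4A4 on the 4 arrays (horizontal axis), drawn as in the plot of the 4 changed genes. Large points are the probe set read for the gene, which varies little in LAMA4, COL1A1, COL13A1 and COL4A4, while thin lines of the same gene drop under the dotted floor of 6 in the LS174T arrays.

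Other genes of matrix assembly and adhesion were read from fixed lists, whose counts stand beside 1.89% of all measured genes changed in HCT116, 1.85% in LS174T and 13.4% between the vector arrays. Collagen biosynthesis genes held 0 changed of 26 measured in HCT116 and 0 of 24 in LS174T, and basement membrane partners 0 of 8 and 0 of 6. Of 8 matrix receptors outside the integrins, the syndecan gene SDC1 fell on the array labelled HCT116-CDX1, to 9.51, against 10.63 in HCT116-Vec. Of 20 measured integrin adaptors, the tensin gene TNS4 fell in LS174T-siCDX1, to 10.14, against 12.03 in LS174T-siVec. The hemidesmosome partners PLEC, DST, CD151 and BCAM differed by 0.31 to 0.52 in the HCT116 pair and by -0.31 to 0.27 in the LS174T pair, with 0 changed. The other integrin ligands held 0 changed of 7 measured in HCT116 and 0 of 6 in LS174T.

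Between the vector arrays, 4 of 26 measured collagen biosynthesis genes were lower in LS174T-siVec and 1 was higher. PCOLCE2, an enhancer of procollagen cleavage, read 5.30 in LS174T-siVec and 9.08 in HCT116-Vec. LOXL1 and LOXL2, enzymes that cross-link collagen, read 5.45 and 6.91 in LS174T-siVec, against 8.97 and 9.35 in HCT116-Vec. PLOD2, a lysyl hydroxylase of collagen, read 6.15 in LS174T-siVec and 8.61 in HCT116-Vec, and its relative PLOD3 was the one higher, at 11.41 against 10.38. Among integrin adaptors, the kindlin gene FERMT2 read 4.68 in LS174T-siVec and 10.52 in HCT116-Vec, and of the hemidesmosome partners PLEC differed by -1.03 and DST by -2.01. Of 7 other integrin ligands measured, 3 were lower in LS174T-siVec and 0 higher. Basement membrane partners had 1 of 8 higher and 3 lower, integrin adaptors 2 of 21 higher and 1 lower, and matrix receptors outside the integrins 1 of 8 higher and 1 lower.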

How the data were processed

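Extraction used RNeasy columns and labelling an Enzo cRNA kit on 2 µg of total RNA, per the labels' protocols. The authors deposited log2 values made with RMA, per the submitters' processing notes; its version and which arrays were normalised together are not known here. These values were used as they stand, so every difference depends on that normalisation. Gene names came from the platform annotation, in which 41097 of 54675 probe sets had 1 gene, 1801 several and 11777 none listed; 41043 matched RefSeq of GRCh38.p14 by gene identifier and 0 symbols changed.

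The genes of the set, the lists, the floor of 6, the 2-fold threshold and the alternatives were chosen with earlier results of these data known. Named genes were those changed in a pair, up to 12 per direction between the vector arrays, the 10 with the highest mean, all laminins and a fixed list of epithelial chains. The 4 arrays were fitted with limma 3.58.1 (R 4.3.3) over 17280 genes with Benjamini-Hochberg adjustment. Both procedures were tested on simulated data. Tables were made in Python 3.11.15 with pandas 2.3.3, numpy 2.4.6 and statsmodels 0.14.6. Alternatives for the 2-array comparisons varied the floor (none, 7), the scaling (quantile, equal medians, loess of span 0.3), the summary over probe sets (their mean, or leaving out names in _x_at and _s_at) and the threshold (1.5-fold, 3-fold). Those for limma varied the floor, trend, robustness, scaling and summary.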

Additional observations from a re-analysis of the deposited data

How the results depend on the processing

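The counts of changed genes in the set were the same with no floor, with a floor of 7, with equal medians, with the mean of probe sets and with levels under 6 set to 6, the last added after the data were seen. In the HCT116 pair the count of 3 (2 higher, 1 lower) became 5 (4 higher, 1 lower) after quantile normalization and after the loess, which brought COL4A5 and COL6A2 over 2-fold; it was 10 at 1.5-fold and 1, COL12A1, at 3-fold. In the LS174T pair the count of 2 became 1 without shared probe sets, since both COL18A1 probe sets are of that kind, and 1 at 3-fold, where COL18A1 was left. Between the vector arrays the count of 12 ranged from 8 to 14; LAMC3 entered after quantile normalization, and after the loess LAMC3 entered and LAMC1 left; with the mean of probe sets COL1A1 and COL13A1 entered and COL27A1 and ITGB4 left, and without shared probe sets it was 8, of which 4 were higher. The limma line term called 15 or 16 genes of the set in each setting and the CDX1 label term 0 in each. No named gene past 2-fold changed sign under any alternative. No paired analysis was possible because each group has 1 array and no replicate number, beyond the limma fit, whose CDX1 label term compares the arrays within each line.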

Other observations

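Type IV collagen genes lie in 3 head-to-head pairs that are transcribed away from a common start region. On the probe sets read for the genes, 1 member was past 2-fold between the vector arrays and the other not in 2 of these pairs. The RefSeq starts of COL4A1 and COL4A2 on chromosome 13 lie 127 bases apart. COL4A2 read 1.83 higher in LS174T-siVec than in HCT116-Vec on the probe set read for it, with HCT116-Vec at 5.85, under 6. Its second probe set differed by 0.98, just under 2-fold, with HCT116-Vec at 5.67. The COL4A1 probe sets differed by -0.20 and -0.19 at levels of 6.11 to 6.87. The nearest starts of COL4A5 and COL4A6 on chromosome X lie 380 bases apart. COL4A5 differed by -4.50 between the vector arrays on the probe set read for it, with LS174T-siVec under 6. Its second probe set differed by -0.33, with both vector arrays under 6. The COL4A6 probe sets differed by 0.01, -0.93 and -0.35 at levels of 5.15 to 6.60. The starts of COL4A3 and COL4A4 on chromosome 2 lie 419 bases apart, and on the probe sets read for them these genes differed by -0.003 and 0.27 between the vector arrays.

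COL18A1, COL6A1 and COL6A2 lie on chromosome 21 and differed among themselves. In LS174T-siCDX1 against LS174T-siVec they differed by -3.41, 0.58 and 0.12. Between the vector arrays, LS174T-siVec minus HCT116-Vec, they differed by 0.33, 0.48 and -2.51.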
